A study of Mus musculus with 8 samples.

Results

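Thyroid hormone handling and response was described here through 9 genes, chosen by name from the expression table of 78317 genes. They are the nuclear receptors Thra and Thrb, the deiodinases Dio2 and Dio3, the transporter Slc16a10, the hormone-binding protein Crym, the hormone-induced genes Klf9 and Hr, and Pax8, a transcription factor with which Dnajc17 has been reported to act in the mouse thyroid. All 9 gene names matched exactly 1 row each. The samples were cochlear basilar membrane, the sheet that carries the hair cells and supporting cells, taken from mice at postnatal day 6. There were 4 libraries titled hete and 4 titled homo; the genotype tag gives the hete libraries as WT and the homo libraries as Dnajc17 cKO, a conditional knockout. The labels do not say whether the hete animals carry a mutant allele, and they give neither the Cre driver nor the deleted part of the gene. Since no label links a library to its own animal, the p-values reflect variation among libraries alone, and that variation may be technical.

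Thyroid hormone is needed for the cochlea to mature, and its action there is set locally. The prohormone thyroxine enters cells through membrane transporters, Dio2 converts it to the active hormone triiodothyronine, and Dio3 inactivates both. Triiodothyronine binds the receptors encoded by Thra and Thrb, which sit on DNA with retinoid X receptors and switch between corepressors and coactivators. In mice, loss of Thrb, Dio2 or Dio3 impairs hearing, and loss of Pax8 leaves the animal without thyroid hormone and deaf.

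The sequences before the start sites of Dio2, Dio3 and Thrb are shown because the activating deiodinase was abundant and the inactivating one near 0, and because a gene-level value merges the starts of Thrb. Each is the 250 bases before a start, read from RefSeq on GRCm38.p6, 5′ to 3′ on the gene's strand, with matched motifs in capitals. The windows are chr12:90739039-90739288 on the minus strand for Dio2, chr12:110278980-110279229 on the plus strand for Dio3, and chr14:17660710-17660959 and chr14:17981394-17981643 on the plus strand for Thrb.
Dio2: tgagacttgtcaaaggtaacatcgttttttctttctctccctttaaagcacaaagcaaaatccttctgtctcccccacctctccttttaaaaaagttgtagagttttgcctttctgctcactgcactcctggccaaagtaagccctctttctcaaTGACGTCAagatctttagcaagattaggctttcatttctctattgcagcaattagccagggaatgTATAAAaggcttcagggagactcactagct
Dio3: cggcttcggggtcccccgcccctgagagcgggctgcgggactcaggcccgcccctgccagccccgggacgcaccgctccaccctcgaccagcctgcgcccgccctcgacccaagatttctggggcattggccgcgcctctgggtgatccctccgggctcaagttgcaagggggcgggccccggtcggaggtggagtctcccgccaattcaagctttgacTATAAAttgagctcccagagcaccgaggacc
Thrb, upstream start: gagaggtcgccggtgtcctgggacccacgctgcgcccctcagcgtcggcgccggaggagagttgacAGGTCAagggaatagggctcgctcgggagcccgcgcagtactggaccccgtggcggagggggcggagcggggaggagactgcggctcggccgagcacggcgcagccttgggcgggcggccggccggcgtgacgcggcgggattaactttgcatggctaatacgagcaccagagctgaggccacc
Thrb, downstream start: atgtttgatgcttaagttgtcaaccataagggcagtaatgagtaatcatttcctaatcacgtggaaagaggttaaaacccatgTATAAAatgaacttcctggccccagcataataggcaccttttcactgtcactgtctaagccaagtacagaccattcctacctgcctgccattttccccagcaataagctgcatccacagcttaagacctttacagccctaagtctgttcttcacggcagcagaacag

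Of the 9 genes, 6 had an entry in the RefSeq promoter table, with 7 starts, and 4 motifs were searched on both strands. The receptor core motif AGGTCA was found 184 bases before the upstream Thrb start and in none of the other 6 windows, while 14% of all 32851 windows hold it. A direct repeat, AGGTCA followed after any 4 bases by AGGTCA, was found in 0 of the 7 windows, against 0.0152% of all windows. The cAMP response element TGACGTCA, found in 1.55% of all windows, lay 95 bases before the Dio2 start. TATAAA, found in 12.4% of all windows, lay 30 bases before the Dio2 start, 31 before the Dio3 start and 167 before the downstream Thrb start. The Dio2 window held 41.6% G and C and the Dio3 window 69.6%, beside 71.6% and 44.0% for the Thrb windows and a median of 52.4% over all windows. These matches describe the letters of the windows and say nothing of binding.

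The values are TPM (transcript abundance scaled by transcript length and by the total of each library), which keep no record of sequencing depth, so no interval or detection limit from read numbers is given. Dnajc17, the targeted gene, stood in the hete libraries at 26.51, 25.45, 25.09 and 22.06 TPM (replicates 1 to 4) and in the homo libraries at 29.33, 27.65, 31.08 and 18.04 TPM, so its gene-level value does not check the labels. All 10 listed hair cell markers, all 10 markers of supporting cells and inner sulcus and all 10 of mesenchyme and fibrocytes had a mean of at least 1 TPM, as the labelled tissue would hold. Bone and cartilage, erythroid, glial and neuronal markers were detected as well. Hete replicate 4 stood apart in several of the genes below and in 2.79% of the 17811 tested genes (gap to the nearest library over the range of its group, above Dixon's 95% critical value), where the other libraries did so in 1.17 to 2.03%. Where leaving it out turned the sign of a value or count, or moved it by over 1.5 times, both are given.

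**Figure D1:**
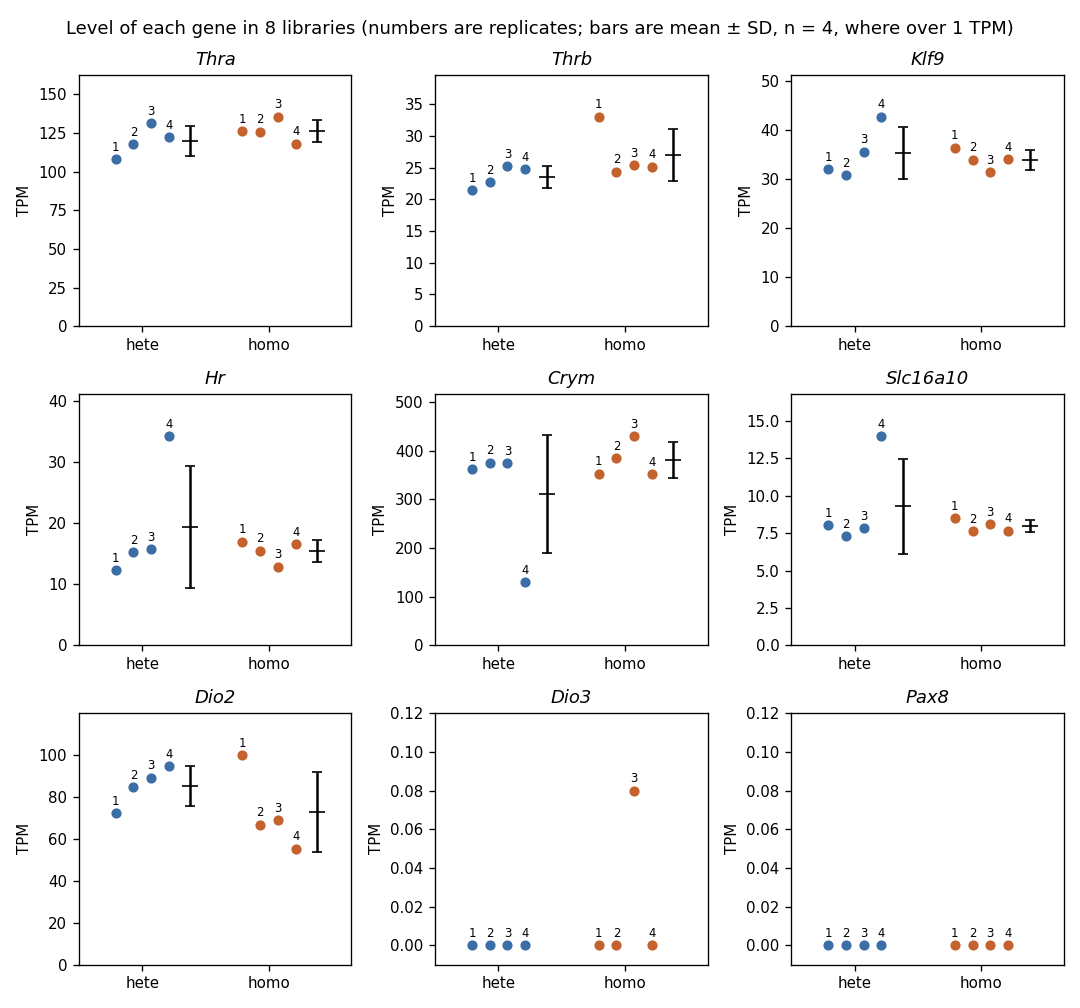
TPM of the 9 genes in each library; points are libraries numbered by replicate, and black bars are mean ± SD (n = 4) for genes over 1 TPM. Crym is at 130.14 TPM in hete replicate 4 against 352.53 or more elsewhere, Hr and Slc16a10 are highest in that library, and Dio3 and Pax8 are at or near 0 throughout.

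None of the 7 genes that could be tested was called as differing between homo and hete. Of the 7, 0 passed an adjusted p of 0.05 (limma-trend on log2(TPM + 1), Benjamini-Hochberg over all genes), against 2 of 17811 tested genes, or 0.0112%. At an unadjusted p under 0.05 the count was also 0 of 7, against 6.05% of tested genes (3.56% higher and 2.49% lower in homo). The hete and homo values overlapped for all 7, where the groups did not overlap for 3.99% of tested genes (homo above in 2.58%, below in 1.41%). Of the 7 log2 fold changes 3 were above 0 with all libraries and 6 without hete replicate 4, where 56.3% and 60.6% of tested genes were above 0. The fit took in genes averaging 1 TPM or more across libraries, which Dio3 and Pax8 did not. In bulk tissue, fewer cells of a type and less RNA per cell cannot be told apart.

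Thra (ENSMUSG00000058756, chromosome 11) encodes the broadly expressed receptor. Its level in hete replicates 1 to 4 was 108.29, 117.91, 131.58 and 122.10 TPM, and in homo replicates 1 to 4 it was 126.03, 125.97, 135.57 and 118.10 TPM. The groups overlapped, with a hete mean of 120 ± 9.66 TPM, a homo mean of 126 ± 7.15 TPM (SD, n = 4) and a log2 fold change of 0.08 (SE 0.07, 95% interval -0.08 to 0.24; limma-trend, adjusted p = 0.911). Its last exons share 263 bases with Nr1d1, a clock repressor on the opposite strand, in GENCODE M21. The library kit marks strand, but whether the counting used it is not given in the sources used here. Nr1d1 had 7.96 to 14.08 TPM in hete and 8.96 to 10.16 in homo, far below Thra, and its log2 fold change of -0.10 (SE 0.14) became 0.038 without hete replicate 4.

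Thrb (ENSMUSG00000021779, chromosome 14) encodes the receptor on which hearing depends in mice and humans. The hete libraries held 21.45, 22.72, 25.24 and 24.78 TPM of it, and the homo libraries 33.03, 24.37, 25.38 and 25.16 TPM. Homo replicate 1 held the highest value, while the other homo libraries lay within or just above the range of hete. Homo over hete gave a log2 fold change of 0.18 (95% interval -0.05 to 0.41, SE 0.10; limma-trend, adjusted p = 0.870), and 0.08 without homo replicate 1. Thra exceeded Thrb in all 8 libraries, by 3.82 to 5.34 times per transcript, so that Thrb made up 15.8 to 20.8% of the summed receptor TPM. The share was 16.1 to 16.9% in hete, and its highest value of 20.8% was that of homo replicate 1.

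Dio2 (ENSMUSG00000007682, chromosome 12), the activating deiodinase, whose RNA in the rodent cochlea has been placed in connective tissue, was at 72.06, 84.64, 89.15 and 94.67 TPM in hete and 99.86, 66.63, 68.90 and 55.29 TPM in homo. Homo replicates 2 to 4 lay below every hete library, and homo replicate 1 lay above every one. The hete mean was 85.1 ± 9.63 TPM and the homo mean 72.7 ± 19.1 TPM (SD, n = 4), with a log2 fold change of -0.25 (SE 0.16, 95% interval -0.62 to 0.12; limma-trend, adjusted p = 0.870). Without homo replicate 1 it was -0.41 (SE 0.11, adjusted p = 0.675), which made Dio2 the 1 gene of the 7 with an unadjusted p under 0.05, and without homo replicate 4 it was -0.13 (adjusted p = 0.899). The 10 mesenchyme and fibrocyte markers, all of them above 0, summed to 13058, 11458, 12171 and 11163 TPM in homo replicates 1 to 4, in the same order as Dio2, and in hete to 13403, 12510.5, 12197 and 12365 TPM, highest where Dio2 was lowest. Otor, an abundant fibrocyte product, makes up most of each sum, with 11046.93 TPM in hete replicate 1. As a mean of log2(TPM + 1), which weights the 10 markers equally, the list stood at 7.92, 8.17, 7.97 and 8.28 in hete, lowest and highest in the same libraries as Dio2, and at 8.38, 8.14, 8.14 and 7.90 in homo. The part of these markers in the Dio2 values was not tested. Dio2 shares 100 exon bases with Gm26512 on the opposite strand, which had 7.21 to 18.03 TPM.

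Dio3 (ENSMUSG00000075707, chromosome 12), the inactivating deiodinase, was listed at 0 in 7 of 8 libraries and at 0.08 TPM in homo replicate 3. Its divergent non-coding neighbour Dio3os was listed at 0 in 5 libraries and reached 0.62 TPM in hete replicate 4. Dio1, the liver and kidney deiodinase, stood at 0.12 to 0.71 TPM. Dio2 was therefore the only one of these 3 iodothyronine deiodinases with a mean of at least 1 TPM in these libraries.

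Crym (ENSMUSG00000030905, chromosome 7) encodes mu-crystallin, a cytosolic protein that binds triiodothyronine and is mutated in a form of human deafness. Its level was the highest of the 9 genes, with 362.50, 375.78, 374.80 and 130.14 TPM in hete and 352.72, 384.80, 430.57 and 352.53 TPM in homo. Hete replicate 4 was far below the other 7 libraries, which lay within 352.53 to 430.57 TPM in both groups. Homo over hete gave a log2 fold change of 0.41 (95% interval -0.41 to 1.22, SE 0.35; limma-trend, adjusted p = 0.905) with all libraries and 0.03 (SE 0.08, 95% interval -0.15 to 0.21; adjusted p = 0.963) without hete replicate 4.

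Slc16a10 (ENSMUSG00000019838, chromosome 10) encodes a transporter of aromatic amino acids and thyroid hormone, known as MCT10. It had 8.03, 7.31, 7.84 and 14.01 TPM in hete and 8.50, 7.63, 8.12 and 7.68 TPM in homo. Hete replicate 4 was the only library above 8.50 TPM, and the other 7 spanned 7.31 to 8.50 TPM. Homo over hete gave a log2 fold change of -0.15 (95% interval -0.54 to 0.23, SE 0.17; limma-trend, adjusted p = 0.929), and 0.04 (SE 0.09) without that library.

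Klf9 (ENSMUSG00000033863, chromosome 19), a zinc finger transcription factor directly induced by triiodothyronine, had 32.05, 30.82, 35.59 and 42.72 TPM in hete and 36.37, 33.93, 31.35 and 34.07 TPM in homo. Hr (ENSMUSG00000022096, chromosome 14), a nuclear receptor corepressor induced by the hormone in rodent brain, had 12.35, 15.25, 15.73 and 34.35 TPM in hete and 17.01, 15.55, 12.89 and 16.55 TPM in homo. Both were highest in hete replicate 4, and all 4 homo values of each lay below that library. For Klf9 the log2 fold change was -0.05 (95% interval -0.27 to 0.18, SE 0.10; limma-trend, adjusted p = 0.969), and 0.05 (SE 0.08) without hete replicate 4. For Hr it was -0.21 (SE 0.28, 95% interval -0.84 to 0.43; adjusted p = 0.944), and 0.10 (SE 0.12, 95% interval -0.18 to 0.37) without it.

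**Figure D2:**
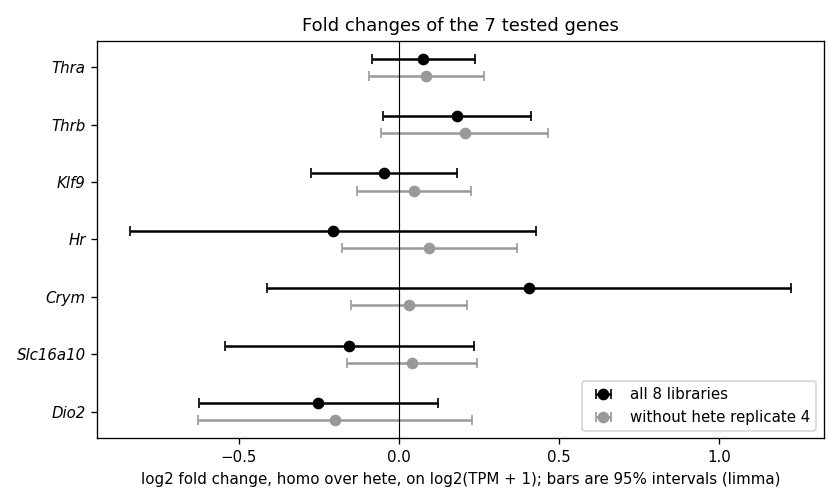
Homo over hete log2 fold change, from log2(TPM + 1), for the 7 tested genes, with 95% intervals from limma, for all 8 libraries (black) and without hete replicate 4 (grey). Every interval spans 0, and those of Crym, Hr and Slc16a10 narrow without that library. The Crym value then moves toward 0, while the values of Hr, Slc16a10 and Klf9 turn from below 0 to above it.

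Pax8 (ENSMUSG00000026976, chromosome 2), needed for thyroid follicle formation, was listed at 0 in all 8 libraries. Among the thyroid follicle markers, Tshr and Foxe1 had means below 1 TPM, Tg, the hormone precursor, had 1.46 to 3.75 TPM, and Slc5a5, the iodide transporter, had 5.02 to 8.25 TPM. Pax2, the related factor of the otic epithelium, was at 13.32 to 20.69 TPM in hete and 12.46 to 19.83 TPM in homo (log2 fold change -0.05, SE 0.16). Its highest value of 20.69 TPM was that of hete replicate 4, and without that library the log2 fold change was 0.07 (SE 0.15). Pax5 had a mean below 1 TPM.

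By mean level over the 8 libraries the order was Crym (345 TPM), Thra (123), Dio2 (78.9), Klf9 (34.6), Thrb (25.3), Hr (17.5), Slc16a10 (8.64), Dio3 (0.01) and Pax8, listed at 0. Each of the first 6 neighbouring pairs kept its order within all 8 libraries, except that Hr exceeded Thrb in 1 library, hete replicate 4. The ranges over libraries overlapped for Crym and Thra, Klf9 and Thrb, Thrb and Hr, and Hr and Slc16a10. Crym RNA stood at 2.22 to 2.79 times the summed receptor RNA per transcript in 7 libraries and at 0.886 times in hete replicate 4.

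Hete replicate 4 thus departed from the other hete libraries in several of these genes, in differing directions. Crym was lowest there, Slc16a10, Klf9 and Hr were highest of all 8 libraries, and Thra, Thrb and Dio2 lay between other libraries. Among the 11 tested hormone-responsive genes of other tissues, Thrsp, Dbp and Me1 were also highest in that library. Together with Klf9 and Hr this makes 5 of 13, where hete replicate 4 was the highest library for 22.4% of all tested genes. Other libraries stood out in the same 13 as well. Homo replicate 4 was the highest for 4, against 10.25% of all tested genes, and hete replicate 1 was the lowest for 7, against 26.6%. Thrsp, a lipogenic gene induced in liver, had 11.02 TPM in hete replicate 4 and 3.53 to 6.34 TPM elsewhere. The same library held 547 TPM of summed hair cell markers against 376 to 448 in the other hete libraries, 2762 TPM of stria and melanocyte markers against 1954 to 2207, and 2467 TPM of erythroid markers against 4063 to 5329. Ocm alone made up 277.77 TPM of the hair cell sum in hete replicate 4, while Myo7a, at 14.1 TPM, was lowest of the hete libraries there. As a mean of log2(TPM + 1), the hair cell list stood at 4.72 in hete replicate 4 and at 4.28 to 4.48 in the other hete libraries. All of the members of these 3 marker lists were above 0, and their part in the values of hete replicate 4 was not tested.

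**Figure D3:**
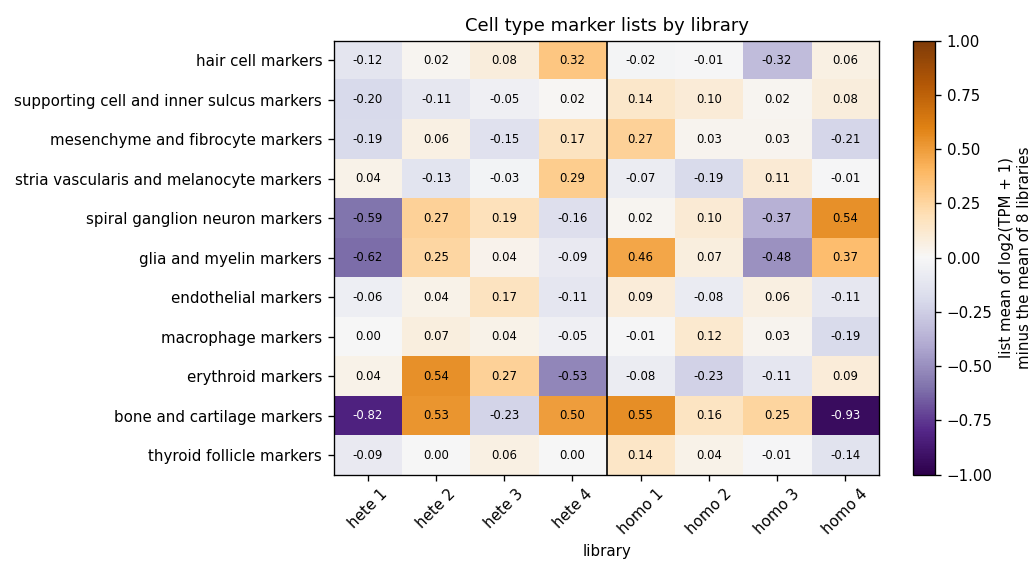
Mean of log2(TPM + 1) over each fixed marker list in each library, minus the mean of that list over the 8 libraries, printed in each cell. Hete replicate 4 is highest for hair cell and stria markers and lowest for erythroid markers, and hete replicate 1 is lowest for glial and neuronal markers.

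A wider set of 64 thyroid hormone genes, chosen by known role, was read from the same fit. Of these, 51 passed the filter on low values, 0 were called by limma-trend, and 2 had an unadjusted p under 0.05, both higher in homo. That is 3.92%, against 3.56% of all tested genes that were higher at that level and 6.05% in either direction. Their median log2 fold change was 0.02, as was that of all tested genes, and 27 of the 51 were higher in homo, 52.9% against 56.3% of all tested genes. These tallies moved with hete replicate 4. Without it, 37 of the 51 were higher in homo, 72.5% against 60.6% of all tested genes, with a median of 0.06 against 0.03. In the same fit 7 of the 51 had an unadjusted p under 0.05, all 7 higher in homo, which is 13.7% against 4.16% of all tested genes that were higher at that level, and 0 were called. Without homo replicate 1, 22 of the 51 were higher in homo, 43.1% against 52.2% of all tested genes. In that fit 4 had an unadjusted p under 0.05, 7.84% against 5.75% of all tested genes, with 0 called. Without hete replicate 1, 22 of the 51 were again higher in homo, 43.1% against 49.1% of all tested genes. The set includes the Pax relatives and the antisense partners named above.

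Among 7 tested transporters (8 listed), 3 stood higher and 4 lower in homo, with 0 called. Slco1c1, a thyroxine transporter, had 61.33 to 112.64 TPM in hete, the highest value in replicate 4, and 60.32 to 77.32 TPM in homo (log2 fold change -0.23, SE 0.16; without hete replicate 4, -0.07). The amino acid transporter subunits Slc3a2, Slc7a5 and Slc7a8, which also carry the hormone, had log2 fold changes of -0.01 (SE 0.07), 0.11 (SE 0.11) and 0.06 (SE 0.10), and that of Slc7a8 was 0.12 without hete replicate 4. Of the binding proteins, Ttr, a carrier in blood and cerebrospinal fluid, was tested alone of 3, with 36.03 to 64.20 TPM over the 8 libraries.

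All 14 receptor partners and coregulators were tested, with 9 higher and 5 lower in homo and 0 called. That is 64.3% higher, against 56.3% of all tested genes. Without hete replicate 4 the split was 12 to 2, or 85.7% higher against 60.6% of all tested genes. In that fit 4 had an unadjusted p under 0.05, all higher in homo, and 0 were called. That is 28.6%, against 4.16% of all tested genes that were higher at that level and 6.3% in either direction. With all libraries it was 1, also higher, or 7.14% against 3.56% higher and 6.05% in either direction. Gps2, a subunit of the corepressor complex that holds unliganded receptors silent, had 41.19, 41.06, 47.27 and 40.67 TPM in hete and 62.63, 57.17, 66.67 and 44.75 TPM in homo. Homo replicates 1 to 3 lay above all hete libraries and homo replicate 4 among them (log2 fold change 0.42 with an SE of 0.12; by limma-trend, adjusted p = 0.638). The complex's deacetylase Hdac3 was at 0.12 (SE 0.07) and its scaffold Ncor1 at 0.16 (SE 0.09), the second named after its values were seen. Ncor1 was at 0.23 (SE 0.07) without hete replicate 4. Rxrg, a retinoid X receptor, was at 0.25 (SE 0.14), and none of these differences passed the adjusted threshold.

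Of 7 tested genes of deiodinase and hormone turnover, 2 stood higher and 5 lower in homo, with 0 called. The split was 4 to 3 without hete replicate 4, and also 4 to 3 without homo replicate 4, where 60.6% and 58.5% of all tested genes were higher. Wsb1, which directs ubiquitination of the Dio2 protein, was at 0.13 (SE 0.07), Iyd, an iodotyrosine deiodinase, at -0.22 (SE 0.16), and the sulfotransferase Sult1a1 at 0.12 (SE 0.12) on the log2 scale. Without hete replicate 4 these were 0.07 (SE 0.06), -0.08 (SE 0.13) and 0.02 (SE 0.10). Of the 11 tested hormone-responsive genes of other tissues, 6 were higher and 5 lower, with Fos at 0.32 (SE 0.15), Thrsp at -0.41 (SE 0.25), Cbr2 at -0.11 (SE 0.09) and the myelin gene Mbp at 0.20 (SE 0.38). Without hete replicate 4 the value of Thrsp was -0.16 and the split 8 to 3, and without hete replicate 1 the split was 2 to 9. The share of all tested genes higher in homo moved as well, with 60.6% in the first of these fits and 49.1% in the second. None was called.

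The 5 listed genes whose cochlear expression depends on thyroid hormone in rodents were all tested. Of these, 3 were higher and 2 lower in homo, with 0 called. At an unadjusted p under 0.05 there was 1, higher in homo, or 20% against 3.56% of all tested genes higher at that level. Without hete replicate 4 the split was 4 to 1, with 2 at that level, both higher, or 40% against 4.16%. Without homo replicate 1 the split was 1 to 4, where 52.2% of all tested genes were higher. Tectb, which encodes beta-tectorin of the tectorial membrane, was at 3847.26, 4045.66, 4061.52 and 4358.89 TPM in hete and 4734.91, 4879.41, 4825.08 and 4466.45 TPM in homo, without overlap (log2 fold change 0.21 with an SE of 0.07; by limma-trend, adjusted p = 0.686). It was the 1 gene of the 51 whose groups did not overlap, against 3.99% of all tested genes. Tectb is also 1 of the 10 supporting cell and inner sulcus markers, and it is counted in their tallies. Of the 10, 9 stood higher in homo, against 56.3% of all tested genes. Of the same 10, 3 did not overlap between groups, against 3.99%. They summed to 6157 to 7063 TPM in hete and 6957 to 7578 TPM in homo, and Tectb itself makes up most of each sum. The part of the other markers in the Tectb values was not tested. Slc26a5, the outer hair cell motor prestin, had 3.5 to 4.61 TPM in hete replicates 1 to 3, 9.78 TPM in hete replicate 4 and 3.07 to 5.45 TPM in homo, and its log2 fold change of -0.17 (SE 0.27) became 0.10 without hete replicate 4. Of 10 genes of hormone synthesis and Pax8 targets, 4 were tested and 0 called, with Slc26a4, the anion exchanger pendrin, at 0.07 (SE 0.14), Slc5a5 at 0.14 (SE 0.14) and Hhex at -0.10 (SE 0.14). Slc26a4 was at 0.16 (SE 0.14) without hete replicate 4.

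**Figure D4:**
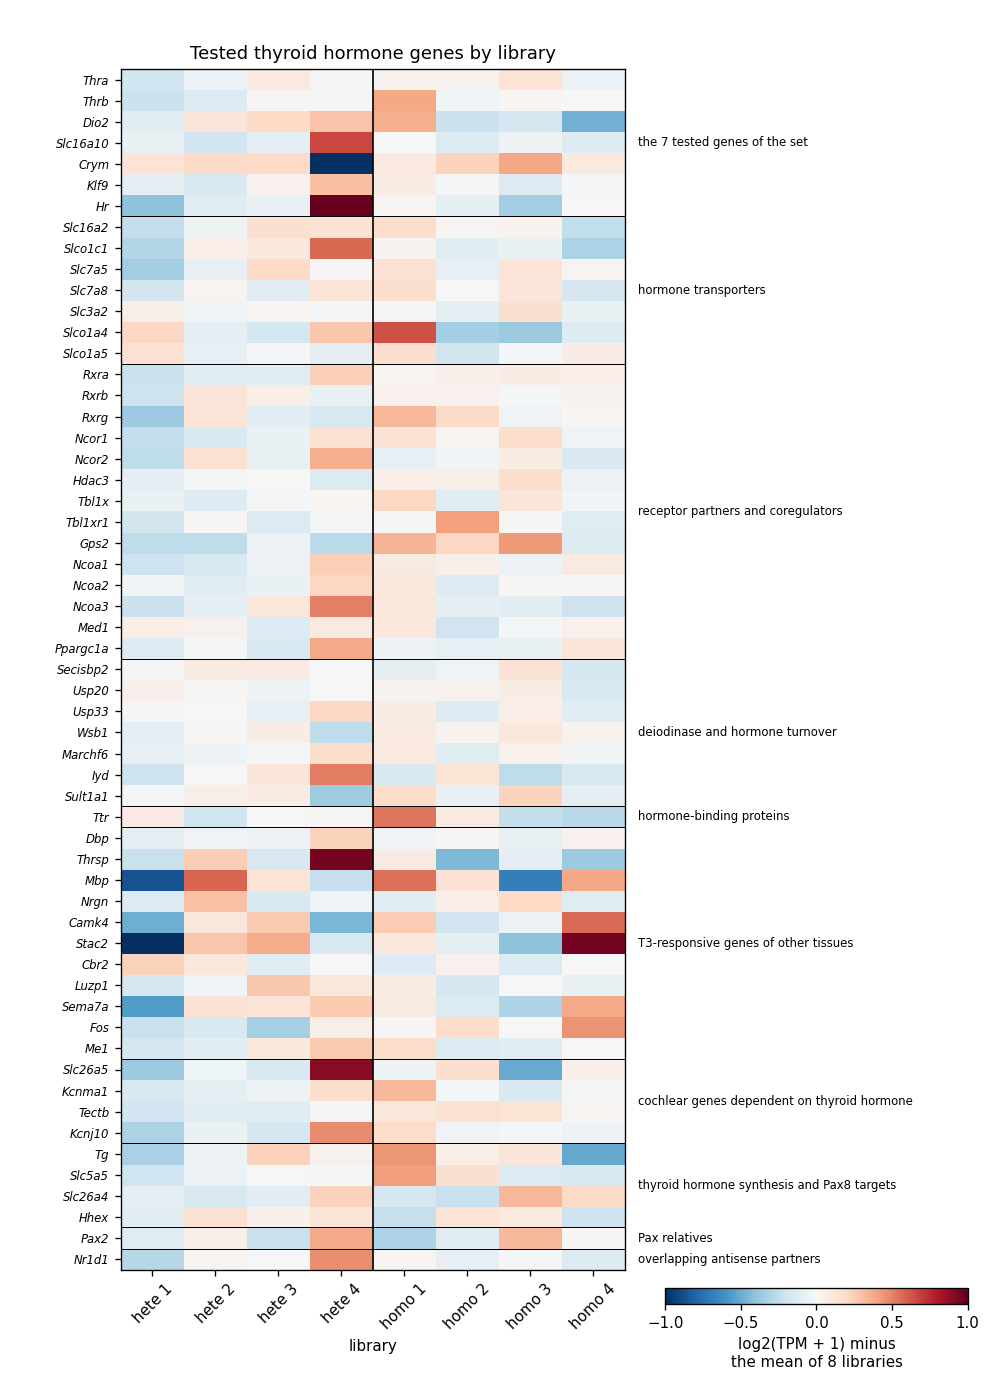
Log2(TPM + 1) of the 7 tested genes of the set and of genes of the wider lists, each minus its mean over the 8 libraries; columns are libraries, rows are genes by list. The departures of Crym, Hr, Slc16a10, Thrsp and Slc26a5 sit in the column of hete replicate 4.

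The deposited table annotates 120 genes with the KEGG thyroid hormone signaling pathway, of which 110 were tested. By limma-trend 0 were called, and 3 had an unadjusted p under 0.05, all lower in homo, where 2.49% of all tested genes were lower at that level. They were the calcium pump Atp2a3 at -0.46 (SE 0.17), Rcan1, an inhibitor of calcineurin, at -0.18 (SE 0.07), and Itgav, an integrin subunit that takes part in binding thyroid hormone at the cell surface, at -0.23 (SE 0.10). The pathway's median log2 fold change was 0.04, against 0.02 over all tested genes, with 68 of 110 genes higher in homo, 61.8% against 56.3% of all tested genes. Without hete replicate 4, 7 had an unadjusted p under 0.05, 6 of them higher in homo (5.45%, against 4.16% of all tested genes). Without hete replicate 1 there were also 7, all lower. In that fit 498 of all 17839 tested genes were lower at that level, a smaller share than in the pathway, and 495 were higher. Counted in either direction, each fit gave 6.36% of the pathway's tested genes. The shares of all tested genes in either direction were 6.3% and 5.57% in the same fits. The direction of this count turned with the library left out. The count was 5 without homo replicate 4, 1 without homo replicate 3 and 2 to 4 without any other library, with 0 called each time. Over these fits the share of all tested genes at that level was 4.61 to 6.67%. In the authors' deposited table of gene ontology enrichment, none of the 9 genes is among the 60 genes named.

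**Figure D5:**
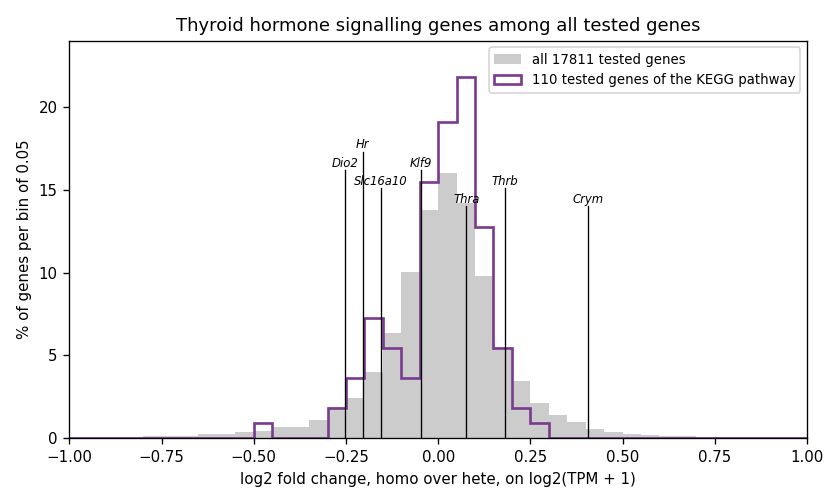
Share of genes per bin of log2 fold change (homo over hete, log2(TPM + 1) scale) for all 17811 tested genes (grey) and the 110 tested genes of the KEGG pathway (outline), with the 7 tested genes of the set marked. The outline centres at 0.04 beside 0.02 for all genes, and Crym at 0.41 is the mark farthest from 0.

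For each tested gene, the genes with the most similar variation across libraries were taken as those with the highest Pearson r of log2(TPM + 1), centred within each group over the 8 libraries, as a description. Near the top of 17811 such values over 8 points, high r is common. Hr was closest to Bcam (r = 0.998, and 0.984 over 7 libraries without hete replicate 4), Hectd4 and Adamts15. Crym was closest to Fibp (0.990, and 0.657 without hete replicate 4), Eif3g and Gfus, and Slc16a10 to Sowahb (0.993, and 0.859), Zfp26 and Pakap. Klf9 was closest to Pik3ip1 (0.987, and 0.957), Maneal and Sertad2. Dio2 was closest to Tra2b (0.984, and 0.992), Zfp943 and Slc25a39, Thrb to Ogfod1 (0.989, and 0.995), Memo1 and Arfip1, and Thra to Gga1 (0.989, and 0.989), Spaca6 and Add1.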

How the data were processed

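The authors deposited TPM per gene for 8 libraries of basilar membrane (1 µg of total RNA each, stranded mRNA kit, per the labels' protocols). Per the submitters' processing notes, the tools were fastp, HISAT2, StringTie, RSEM and DESeq2 and the build GRCm39; no version is given, nor what each tool did. A deposited table of gene ontology enrichment gives the authors' p-values per term. Another deposited table, of splicing event numbers without gene names, was not used. Because the table holds TPM and not counts, log2(TPM + 1) of genes averaging 1 TPM or more was fitted with limma 3.58.1 (R 4.3.3), trend and robust eBayes, genotype as the only term, and p-values were adjusted over all 17811 genes (Benjamini-Hochberg, threshold 0.05). Fold changes on this scale understate those of low genes. The steps were tested on simulated data. Depth is unknown, and an exact 0 may be a failed estimate.

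The gene set, its lists and the tests were chosen with earlier results of these data known. Named from each wider list were called genes, the 3 with the smallest p and the 1 with the highest mean. Genes named outside this rule, among them Dbp, Me1, Ncor1, Tg, Otor, Atp2a3, Rcan1 and Itgav, were named after their values were seen. Some genes of these lists are not reported here, in the text or the figures. Chromosomes and exon overlaps came from GENCODE M21 (GRCm38), matched by gene ID, and promoter windows from RefSeq on GRCm38.p6; the authors' build differs, so no gene coordinates are given. The alternatives were quantile normalization, rescaling over protein-coding nuclear genes, a pseudocount of 0.1, no filter, at least 5 TPM in at least 4 libraries, eBayes without the robust option, the replicate number as a block, and leaving out each library in turn. Figures were drawn with matplotlib 3.10.9.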

Additional observations from a re-analysis of the deposited data

Results flagged for a closer look

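In groups of 4 libraries, a library was set apart when its gap to the nearest other, divided by the range of the group, exceeded Dixon's 95% critical value, which chance gives in about 1 of 20 groups. Crym was at 130.14 TPM in hete replicate 4, with 362.50 to 375.78 TPM in the other hete libraries (gap over range 0.946). Slc16a10 was at 14.01 TPM in the same library, with 7.31 to 8.03 TPM in the others (0.893), and Hr at 34.35 TPM, with 12.35 to 15.73 TPM in the others (0.846). Slc26a4 was at 20.25 TPM there, with 15.17 to 16.01 TPM in the others (0.835), and Dbp at 60.11 TPM, with 47.73 to 49.61 TPM in the others (0.848). Thrb was at 33.03 TPM in homo replicate 1, with 24.37 to 25.38 TPM in the other homo libraries (0.883), and Gps2 at 47.27 TPM in hete replicate 3, with 40.67 to 41.19 TPM in the other hete libraries (0.921). Otor was at 11046.93 TPM in hete replicate 1, with 9515.56 to 9625.45 TPM in the other hete libraries (0.928).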

How the results depend on the processing

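Over 15 alternatives, 0 of the 7 tested genes and 0 of the wider thyroid hormone genes were called by limma-trend under any of them. Over all genes, 1 was called with no filter on low values, 1 with the replicate block and 1 to 5 when a library was left out, against 2; it was 5 without hete replicate 3, 4 without homo replicate 1 or homo replicate 4, and 1 when hete replicate 1 or either of homo replicates 2 and 3 was left out. With at least 5 TPM in at least 4 libraries it was 3. Leaving out 1 library moved the log2 fold change of Slc16a10 between -0.24 and 0.042, Klf9 between -0.11 and 0.047 and Hr between -0.37 and 0.10; the sign turned only without hete replicate 4, and the cause was not tested. It moved Crym between 0.03 and 0.54, Dio2 between -0.41 and -0.13, Thrb between 0.08 and 0.23 and Thra between 0.03 and 0.12. The adjusted p of the 7 genes ranged from 0.675 to 0.998 over all alternatives. The labels do not say whether same-numbered hete and homo libraries are paired. The deviations of such libraries correlated between -0.08 and 0.05 over tested genes, and 1 of 4 hete libraries correlated best with its own number. These values, taken over all tested genes, cannot settle whether a pairing acts on some of them. The block changed no call of a thyroid hormone gene. TPM keeps no depth, so the precision of Dio3, Pax8 and other genes near 0 is unknown.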

Other observations

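Over the 58 tested genes of the set and the wider lists, hete replicate 1 was the lowest of the 8 libraries for 25, where it was the lowest for 26.6% of all tested genes. Hete replicate 4 was the highest for 21 of the 58, where it was the highest for 22.4% of all tested genes, and homo replicate 1 was the highest for 13, against 18.8%. The authors' deposited table of gene ontology enrichment holds a term on the regulation of thyroid hormone generation, resting on Duoxa1 alone (p = 0.0150, adjusted p = 1.0).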
